A study of Homo sapiens with 4 samples.

Results

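Epithelial-mesenchymal transition (EMT) genes were examined in BT474 cells, an established luminal breast cancer line with amplified ERBB2, after treatment with AICAR. The set held 10 genes: the filament gene VIM, the cadherins CDH1 and CDH2, the matrix genes FN1 and COL1A1, and the transcription factors SNAI1, SNAI2, ZEB1, ZEB2 and TWIST1. Every probe set that the platform annotation ties to exactly 1 of these symbols was taken, which gave 30 of the 54613 non-control probe sets on the array. VIM and COL1A1 were selected on their known differences between AICAR and vehicle in these same arrays, so both are given as values with no test. The other 8 genes are EMT genes by their known roles, but the set as a whole was put together with earlier results of these arrays known. Their 23 probe sets are read against the fit of the whole array, and their p-values are not independent of that choice.

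The vehicle group was BT474 in medium with vehicle for 24 h, and the AICAR group was the same line in medium with 0.5 mM AICAR for 24 h. AICAR is a nucleoside that cells convert into an AMP mimic, which activates the energy-sensing kinase AMPK. Each group had 2 arrays, no gene was manipulated, and 1 cell line was used, so the values describe that line only. The labels do not say whether replicates were separate cultures, so every p-value here reflects array-to-array spread that could be technical alone. Values are log2 expression per probe set, the array medians lay between 6.37 and 6.39, and replicate arrays correlated at r = 0.997 in each group. The labelled cell type matched its markers: 12 of 12 luminal and ERBB2 marker genes, among them ERBB2, GATA3, KRT8 and KRT18, had means of 9.28 to 14.2 (log2).

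In an EMT, epithelial cells loosen their E-cadherin junctions and take on the vimentin filaments, N-cadherin and fibronectin-rich matrix of mesenchymal cells. A small group of transcription factors drives the switch. The zinc finger proteins of the SNAI and ZEB families and the basic helix-loop-helix protein TWIST1 bind E-boxes (CANNTG) and repress CDH1. Luminal breast cancer cells usually keep high E-cadherin and make little vimentin.

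The VIM promoter is shown because VIM had the largest difference of the set. Of several ZEB1 promoter windows, the one at the gene's first start is shown because it holds the E-box form that SNAI and ZEB proteins prefer. Both are the 250 bases before the gene's start, from RefSeq (GRCh38.p14), 5′ to 3′ on the + strand: chr10:17227991-17228240 for VIM and chr10:31318167-31318416 for ZEB1. Capitals mark E-boxes (CANNTG, the same on both strands) and GC boxes (GGGCGG, or CCGCCC on the other strand), which are known to be bound by SP1.
VIM: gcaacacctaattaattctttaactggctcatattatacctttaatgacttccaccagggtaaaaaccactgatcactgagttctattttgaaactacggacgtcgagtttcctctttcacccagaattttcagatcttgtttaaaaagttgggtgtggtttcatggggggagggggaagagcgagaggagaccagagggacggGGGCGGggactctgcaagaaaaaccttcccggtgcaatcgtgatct
ZEB1: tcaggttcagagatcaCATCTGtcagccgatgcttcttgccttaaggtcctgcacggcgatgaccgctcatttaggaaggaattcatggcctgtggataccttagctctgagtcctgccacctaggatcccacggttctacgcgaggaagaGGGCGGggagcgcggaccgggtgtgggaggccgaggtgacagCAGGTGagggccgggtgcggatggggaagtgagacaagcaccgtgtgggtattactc

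The VIM window held 0 E-boxes and 1 GC box, which began 46 bases before the start. The ZEB1 window held 2 E-boxes, CATCTG at 234 and CAGGTG at 57 bases before the start, and 1 GC box at 99. Among 35116 promoter windows of the same length, 61.8% held an E-box, 17.5% held CACCTG or CAGGTG, and 42.6% held a GC box. The ZEB1 window was chosen for its motif, so nothing is read from these shares for it. Other ZEB1 starts differed: the window at 31318818 held 0 E-boxes, and that at 31319216 held CACCTG and CAGGTG. These matches describe letters in the window and were not tied to binding. Of the 10 genes, 5 had a promoter in the table (VIM, CDH2, FN1, ZEB1 and ZEB2), with 12 starts between them.

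VIM encodes the type III intermediate filament of mesenchymal cells. Its probe set 201426_s_at read 10.51 and 10.50 (log2) in the vehicle arrays and 11.71 and 11.80 in the AICAR arrays. Both AICAR values lay far above both vehicle values, a difference of 1.24 (SE 0.0877) or 2.37-fold. The other VIM probe set, 1555938_x_at, read 3.82 and 3.86 with vehicle and 3.92 and 3.86 with AICAR. Those groups overlapped, and the difference was 0.05 (SE 0.0868).

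The 2 VIM probe sets therefore disagreed by 1.19 on the log2 scale in the size of their difference. The dim one had a mean at percentile 8.33 of all probe sets, and the bright one at percentile 96.0. With vehicle alone the bright one already had a mean of 10.5 (log2), so its difference did not start from a low reading. By the maker's naming, the suffix _x_at marks a probe set whose probes may also bind other sequences, and _s_at one that may bind several transcripts. Of 10523 genes with at least 2 probe sets, the median gap between a gene's highest and lowest difference was 0.199. VIM was chosen on its difference in these arrays, so nothing is read from its gap against that median. Dim probe sets seldom passed the threshold: 24 of 16384 below the 30th percentile (log2 5.21) did so, 0.146%, against 788 of 38229 brighter ones, 2.06%. In 74 genes the brightest probe set passed while the dimmest lay below the 30th percentile, and in 2 of the 74 (2.70%) the dimmest passed in the same direction. Whether dimness or the probes' targets account for the gap at VIM was not tested.

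**Figure D1:**
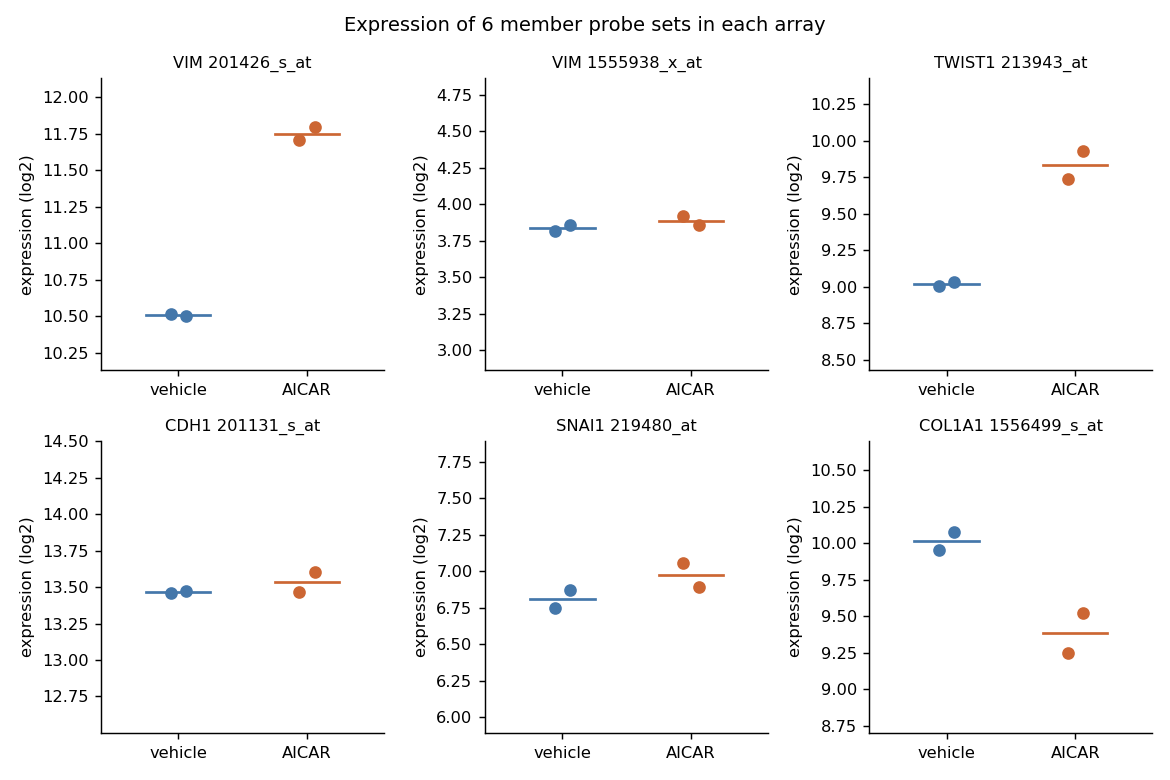
Log2 expression of 6 member probe sets in each of the 4 arrays (points; vehicle blue, AICAR orange), with group means as lines and a y axis of equal span in every panel. VIM 201426_s_at and TWIST1 have both AICAR arrays well above both vehicle arrays, COL1A1 1556499_s_at has both below, and VIM 1555938_x_at and CDH1 overlap.

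TWIST1, the basic helix-loop-helix factor of mesoderm that represses CDH1, was the only one of the 8 genes other than VIM and COL1A1 with a probe set past the threshold. Its single probe set, 213943_at, read 9.01 and 9.04 (log2) with vehicle and 9.74 and 9.93 with AICAR. The arrays of the 2 groups did not overlap. TWIST1 rose 1.76-fold (log2 0.81, SE 0.0998, 95% confidence interval 0.58 to 1.05, limma adjusted p = 0.0231, higher in 2 of 2 AICAR arrays). Of the 23 probe sets of the 8 genes, 1 passed upward and 0 downward at an adjusted p under 0.05 in limma, while before adjustment 2 were higher and 1 was lower (p under 0.05). Over the array, 0.599% of probe sets passed upward and 0.888% downward, and the unadjusted shares were 6.92% and 9.19%. TWIST1 did not pass in any fit that left out 1 array: its difference was 0.80 without vehicle replicate 1 (limma adjusted p = 0.210), 0.83 without vehicle replicate 2 (0.161), 0.91 without AICAR replicate 1 (0.0901) and 0.72 without AICAR replicate 2 (0.136). In those fits at most 1 probe set of the whole array passed.

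SNAI1, a zinc finger repressor of CDH1, read 6.75 and 6.87 (log2) with vehicle and 7.06 and 6.89 with AICAR. The AICAR arrays lay just above the vehicle arrays, and the difference of 0.16 (95% confidence interval -0.08 to 0.40, limma adjusted p = 0.500) did not pass. SNAI2, its close relative, read 3.57 and 3.61 with vehicle and 3.50 and 3.67 with AICAR, with overlapping groups. Its difference was -0.0033 (-0.23 to 0.22, limma adjusted p = 0.993), with a mean at percentile 3.90 of probe sets. At that level a change of SNAI2 may not be measurable.

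ZEB1, a zinc finger and homeodomain repressor of epithelial genes, had 4 probe sets, and all 4 differences were negative, between -0.20 and -0.14 (log2). The brightest, 212758_s_at, read 6.33 and 6.60 with vehicle and 6.22 and 6.38 with AICAR, and its groups overlapped. Its difference was -0.16 (95% confidence interval -0.45 to 0.12, limma adjusted p = 0.564). The other 3 probe sets lay below the 30th percentile, with both AICAR arrays under both vehicle arrays in each. None of the 4 passed, at adjusted p-values of 0.450 to 0.564 in limma, and all 4 were above 0.05 unadjusted. The probe sets of a gene share their samples and are not replicates.

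ZEB2, the related repressor, had 5 probe sets with differences from -0.09 to 0.11 (log2), 2 of them positive. Only 233031_at reached the 30th percentile. It read 5.59 and 5.36 with vehicle and 5.46 and 5.48 with AICAR, and the AICAR arrays lay inside the vehicle range. The other 4 had means of 3.30 to 3.87, so ZEB2 was close to the floor of the array in both groups.

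CDH1, the E-cadherin of epithelial adherens junctions, was among the brightest probe sets of the array. Its probe set 201131_s_at, at percentile 99.4, read 13.46 and 13.47 (log2) with vehicle and 13.47 and 13.60 with AICAR. The groups overlapped, with a difference of 0.07 (95% confidence interval -0.15 to 0.28, limma adjusted p = 0.776). The other, 201130_s_at, read 8.11 and 7.96 with vehicle and 8.14 and 7.97 with AICAR, a difference of 0.02 (-0.23 to 0.26, limma adjusted p = 0.959). No fall of CDH1 was measured beside the higher VIM and TWIST1 values.

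CDH2, the N-cadherin of neural and mesenchymal cells, had 2 probe sets. The brighter, 203441_s_at, read 6.23 and 6.11 (log2) with vehicle and 6.17 and 6.14 with AICAR, with the AICAR arrays inside the vehicle range and a difference of -0.01 (limma adjusted p = 0.959). The dimmer, 203440_at, at percentile 29.9, read 5.08 and 5.11 with vehicle and 5.25 and 5.39 with AICAR. Its groups did not overlap and the difference was 0.22 (95% confidence interval 0.0037 to 0.44), but it did not pass over the array (limma adjusted p = 0.301, unadjusted p = 0.0471). The 2 probe sets thus differed by 0.24 in their difference, a gap that 41.7% of genes with several probe sets reached or exceeded.

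FN1, the fibronectin that mesenchymal cells lay down as matrix, had 7 probe sets with differences from -0.35 to 0.10 (log2), 5 of them negative. The lowest, 212464_s_at, read 6.00 and 5.99 with vehicle and 5.56 and 5.72 with AICAR. Both AICAR arrays were lower, yet the difference of -0.35 (95% confidence interval -0.58 to -0.13) did not pass (limma adjusted p = 0.132, unadjusted p = 0.00793). The brightest, 210495_x_at, read 6.40 and 6.28 with vehicle and 6.20 and 6.29 with AICAR, with overlap and a difference of -0.09 (limma adjusted p = 0.686). The highest difference, 0.10 at 1558199_at, belonged to a probe set at percentile 14.8.

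**Figure D2:**
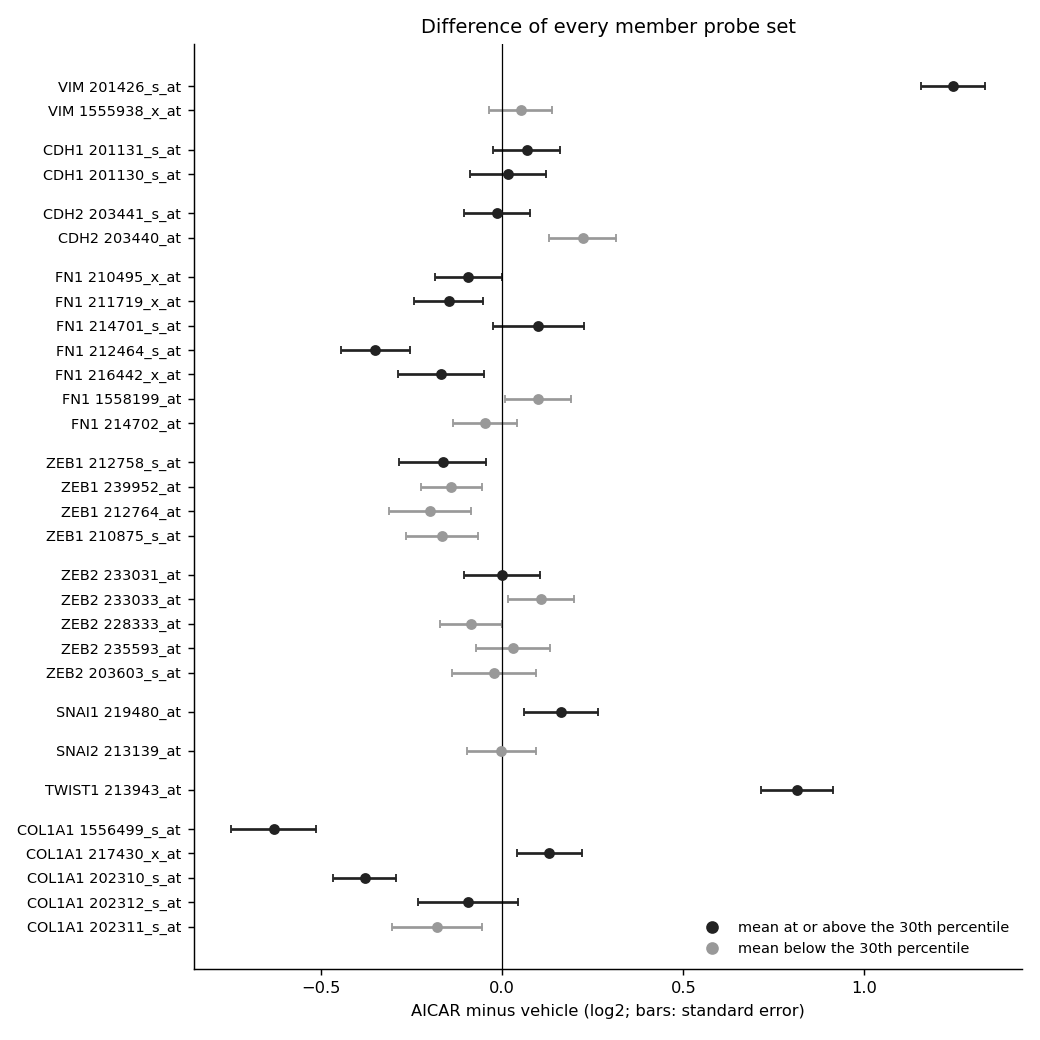
AICAR minus vehicle (log2) for each of the 30 member probe sets (points) with its standard error (bars), grouped by gene; grey points have a mean below the 30th percentile of all probe sets. VIM 201426_s_at and TWIST1 stand to the right at 1.24 and 0.81, 2 COL1A1 probe sets stand to the left at -0.63 and -0.38, and all 4 ZEB1 probe sets are slightly negative.

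COL1A1 encodes the main chain of type I collagen, which fibroblasts and mesenchymal cells secrete. Its brightest probe set, 1556499_s_at, read 9.95 and 10.08 (log2) with vehicle and 9.25 and 9.52 with AICAR. Both AICAR arrays were lower, with a difference of -0.63 (SE 0.117), or 1.55-fold. A second, 202310_s_at, read 6.84 and 6.90 with vehicle and 6.47 and 6.51 with AICAR, again with no overlap, and differed by -0.38 (SE 0.0870).

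The remaining COL1A1 probe sets were mixed. For 217430_x_at the values were 8.48 and 8.45 with vehicle against 8.54 and 8.65 with AICAR, so both AICAR arrays were higher, by 0.13 (SE 0.0892). For 202312_s_at and 202311_s_at the groups overlapped, at -0.09 (SE 0.138) and -0.18 (SE 0.124). Thus 4 of the 5 differences were negative, and the gap between the highest and lowest was 0.76. The mean difference over all 5 was -0.23, against 0.65 over the 2 probe sets of VIM.

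Across the set, 12 of the 30 differences were positive and 18 negative, with a median of -0.02 (log2), while the median over all probe sets was 0.01. In 7 probe sets both AICAR arrays lay above both vehicle arrays and in 8 both lay below, against 23.6% and 23.3% of all probe sets. These members include VIM and COL1A1, whose contrast chose them, so nothing is read from the totals. In all, 13 of the 30 probe sets lay below the 30th percentile: 4 of ZEB2, 3 of ZEB1, 2 of FN1 and 1 each of VIM, CDH2, SNAI2 and COL1A1.

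**Figure D3:**
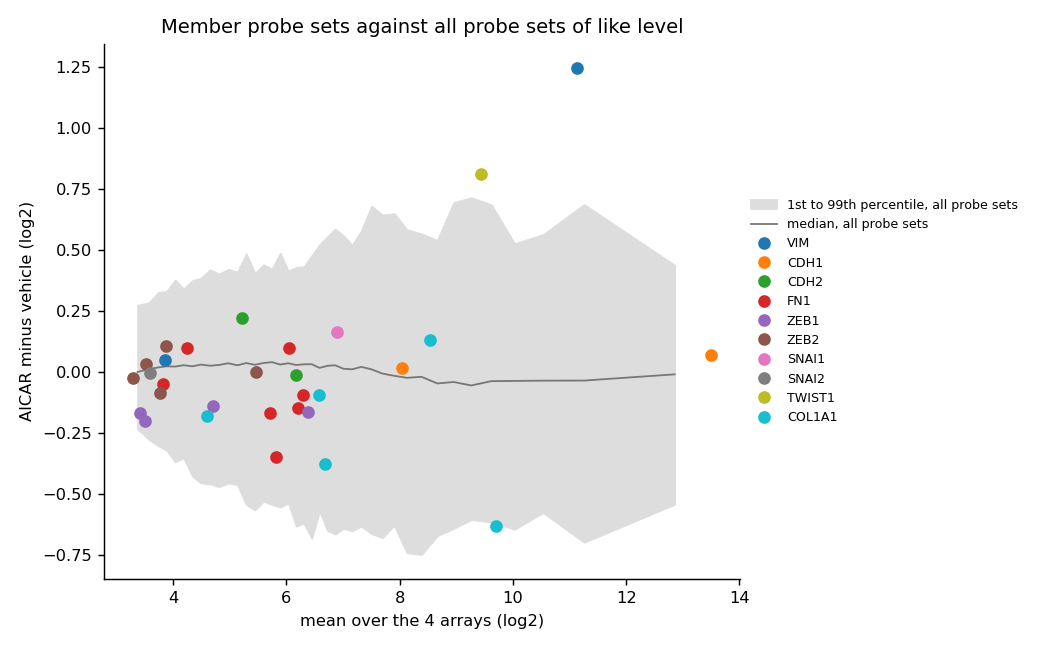
Difference (AICAR minus vehicle, log2) against mean level (log2) for the member probe sets (coloured points), over the 1st to 99th percentile (grey band) and median (line) of all probe sets in 40 bins of level. The brighter VIM probe set and TWIST1 lie above the band, the brightest COL1A1 probe set lies near its lower edge, and the dim members sit where the band is narrow. VIM and COL1A1 were chosen on these differences, so their places against the band are not a test.

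Other genes of the pathway were read from lists of regulators, epithelial genes and mesenchymal genes, 1 probe set per gene, the one with the highest mean. Over all 19775 genes read this way, 0.951% passed upward and 0.738% downward, and the median difference was 0.02 (log2). Without adjustment, 8.87% of these genes were higher and 8% lower at p under 0.05, the shares against which the unadjusted counts of the lists are read. Counts over every probe set of a list or gene are read against the shares of all probe sets, 0.599% upward and 0.888% downward. Among 15 measured EMT regulators of 16, 0 passed in either direction (limma), and without adjustment 1 was higher and 1 lower at p under 0.05. Their median was -0.03. The helix-loop-helix inhibitor ID3 read 11.24 and 11.32 with vehicle and 11.70 and 11.72 with AICAR, a difference of 0.43 (limma adjusted p = 0.0702). TCF3, the partner protein that dimerises with TWIST1, differed by -0.30 (limma adjusted p = 0.142), with 9 of 14 probe sets negative. Of those 14, 1 passed downward, 209152_s_at, at -0.58 (limma adjusted p = 0.0411). With dim probe sets below the 30th percentile left out before the fit, ID3 passed (limma adjusted p = 0.0471; 0.000702 to 0.369 over all alternatives).

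Of 12 regulators that keep cells epithelial, 11 were measured and 0 passed (limma), and without adjustment 0 were higher and 4 lower at p under 0.05. Their median was -0.10 (log2), with 7 of 11 negative. EHF, an epithelial ETS factor, read 12.01 and 12.00 with vehicle and 11.69 and 11.65 with AICAR, a difference of -0.33 (limma adjusted p = 0.113), and each of its 6 probe sets was negative. KLF5 differed by -0.29 (limma adjusted p = 0.288), with 1 of its 2 probe sets negative. Among all 27 probe sets of these genes 2 passed downward, against 0.888% of all probe sets. Both were of the epithelial ETS factor ELF3 and neither its brightest (-0.11), at -0.57 and -0.58 (limma adjusted p = 0.0369 and 0.0416). When the probe sets of each gene were averaged, 3 of the 11 passed downward (limma), and 0 upward, against 1.91% and 1.87% of all genes in that fit.

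Of 30 epithelial adhesion genes, 27 were measured and 0 passed in either direction (limma), and without adjustment 3 were higher and 3 lower at p under 0.05. Their median was 0.01. Among all 58 probe sets of these genes 1 passed downward, against 0.888% of all probe sets. It was 1554411_at of CTNNB1, the catenin that links E-cadherin to the cytoskeleton, at -0.79 (limma adjusted p = 0.0185). The brightest probe set of CTNNB1 differed by -0.17. The mucin MUC1 read 9.30 and 9.20 (log2) with vehicle and 8.85 and 8.72 with AICAR, a difference of -0.47 (limma adjusted p = 0.0701), with 2 of 3 probe sets negative. The tight junction protein CLDN1 differed by 0.42 (limma adjusted p = 0.0895), with both probe sets positive. With dim probe sets below the 30th percentile left out, MUC1 passed (limma adjusted p = 0.0485; 0.00519 to 0.371 over all alternatives).

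Of 38 mesenchymal matrix and adhesion genes, 36 were measured, of which 3 rose and 1 fell, with a median of 0.10 and 26 positive differences. Without adjustment 4 of the 36 were higher and 2 lower at p under 0.05 (limma), against 8.87% and 8% of all genes. COL5A2, a type V collagen chain, read 6.86 and 6.66 (log2) with vehicle and 7.51 and 7.94 with AICAR, and rose by 0.97 (SE 0.154, limma adjusted p = 0.0402, higher in 2 of 2). COL4A2, a basement membrane collagen, went from 6.83 and 6.96 to 7.51 and 7.60, a rise of 0.66 (SE 0.0939, limma adjusted p = 0.0305). The other probe set of each was also positive, at 0.36 and 0.49. None of the other collagen chains in the list passed. COL4A1 differed by 0.23 (limma adjusted p = 0.550), COL5A1 by 0.02 (0.971) and COL12A1 by -0.19 (0.379). COL1A2 differed by 0.31 (limma adjusted p = 0.183) and COL3A1 by -0.0022 (0.995).

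CD44, the hyaluronan receptor often raised in mesenchymal-like breast cells, read 8.23 and 8.12 (log2) with vehicle and 8.72 and 8.85 with AICAR, a rise of 0.61 (SE 0.0958, limma adjusted p = 0.0397). Of its 13 probe sets, 7 passed upward, and the differences ran from -0.17 to 0.98. TNC, the matrix protein tenascin C, went from 8.94 and 8.89 to 8.37 and 8.45, a difference of -0.50 (SE 0.0878, limma adjusted p = 0.0491, lower in 2 of 2), and its other 2 probe sets were negative at -0.05 each. The CD44 and TNC arrays did not overlap between groups. THBS1, another gene of the list, read 8.88 and 8.85 with vehicle and 8.15 and 8.41 with AICAR. Its difference of -0.59 (SE 0.110) was larger than that of TNC but did not pass (limma adjusted p = 0.0574). With dim probe sets below the 30th percentile left out, 3 genes of the list passed upward and 2 downward (limma). COL5A2, COL4A2, CD44 and TNC did not pass in any of the 4 fits without 1 array of either group. Each kept its direction there, which the lack of overlap between groups fixed in advance. TNC also did not pass after quantile normalization (limma adjusted p = 0.0508), with the replicate block (0.0566) or with the mean of its probe sets (log2 -0.20, 0.176).

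Of 12 actin and smooth muscle genes, 11 were measured, and all 11 differences were positive with a median of 0.13 (log2), yet 0 passed (limma) and 0 did so at an unadjusted p under 0.05. TPM1 differed by 0.20 (limma adjusted p = 0.371) and CALD1 by 0.18 (0.431). When the probe sets of each gene were averaged, 8 of 11 were positive and the median was 0.04. The median was 0.07 to 0.08 in each fit without 1 array.

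In the list of intermediate filaments and lamins, the protein family of VIM with its linker PLEC, 19 of 20 were measured, 0 rose and 1 fell, with a median of 0.03 (log2). Without adjustment 2 were higher and 2 lower at p under 0.05 (limma). The nuclear lamin LMNB1 read 9.43 and 9.47 with vehicle and 8.98 and 8.90 with AICAR, a difference of -0.51 (SE 0.0881, limma adjusted p = 0.0482, lower in 2 of 2). It did not pass after quantile normalization (limma adjusted p = 0.0594), with the replicate block (0.0546) or in the 4 fits without 1 array. The luminal keratins KRT8 (-0.05), KRT18 (0.0012) and KRT19 (0.11) did not pass. Nor did DES (0.02), the muscle relative of vimentin.

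**Figure D4:**
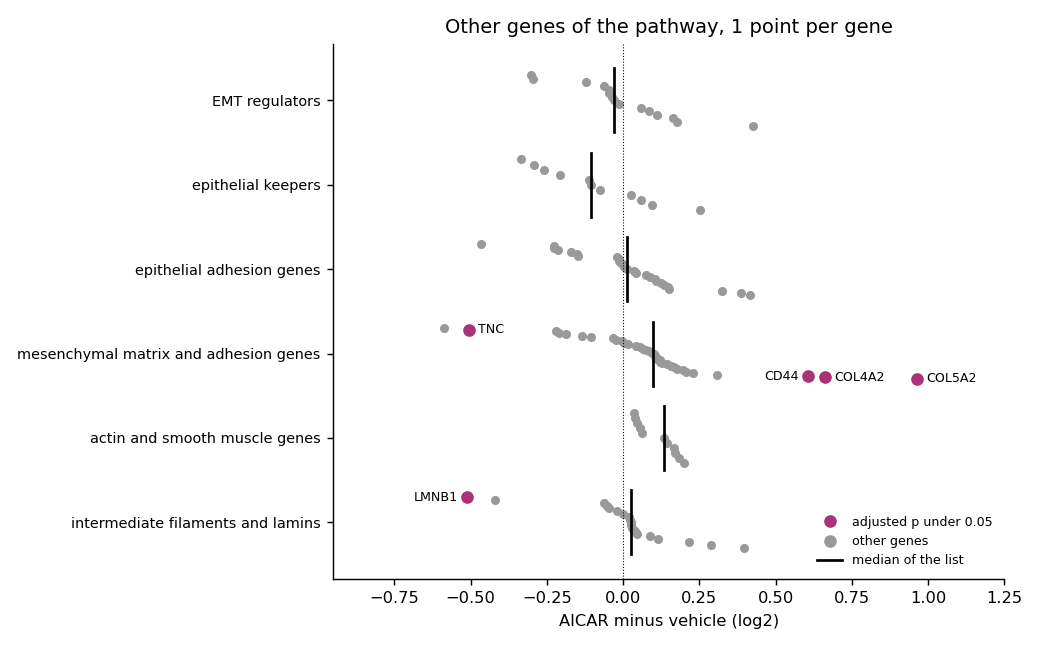
AICAR minus vehicle (log2) for the measured genes of 6 lists, 1 point per gene (the probe set with the highest mean), with the list median as a vertical line; purple points passed at a limma adjusted p under 0.05. COL5A2, COL4A2 and CD44 lie to the right and TNC and LMNB1 to the left, while the regulator and epithelial lists hold grey points only.

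Markers of other cell types were read beside these values, since fibroblasts express VIM, COL1A1 and TWIST1. Of 9 fibroblast markers, 9 were measured with means of 4.18 to 7.50 (log2), LUM and POSTN lay below the 30th percentile, and 0 passed (limma), with 1 higher and 0 lower where p was under 0.05 before adjustment. Their summed level on the unlogged scale was 628 and 643 with vehicle and 662 and 665 with AICAR. The sum was slightly higher in both AICAR arrays. Of 7 endothelial markers, 7 were measured and 0 passed (limma; 1 higher and 0 lower before adjustment), with sums of 647 to 652 with vehicle and 647 to 666 with AICAR, and CDH5 and KDR lay below the 30th percentile. Of 8 blood markers, 5 were measured and 0 passed (limma; 1 higher and 0 lower before adjustment), with sums of 299 to 307 and 319 to 346, and PTPRC lay below the 30th percentile. Of 7 basal or myoepithelial markers, 5 were measured and 1 rose, the oxytocin receptor OXTR (log2 0.95, limma adjusted p = 0.0138), with sums of 352 to 362 and 415 to 465, and KRT14 lay below the 30th percentile. Of the 12 luminal and ERBB2 markers 0 passed (limma), with 0 higher and 2 lower before adjustment, ESR1 (log2 -0.31) and TFF3 (-0.24). The part of other cells in the VIM and TWIST1 values was not tested, and a bulk array does not tell more cells of a type from more RNA per cell.

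The genes whose profile over the 4 arrays lay closest to that of VIM 201426_s_at were found by Euclidean distance between log2 values centred on each probe set's mean. They were the histone gene H2AC8 (distance 0.0658), the lysosomal and melanosomal glycoprotein gene GPNMB (0.0735), the histone genes H2AC25 (0.111) and H2BC5 (0.114), and KDELR3 (0.174), a receptor that returns proteins to the endoplasmic reticulum. With 4 arrays in 2 groups, closeness reflects mainly a like-sized difference, and these 5 ranged from 1.07 to 1.22. TWIST1 lay at 0.439, with 49 of 19774 genes (0.248%) closer to VIM. That distance was added after the TWIST1 values were seen. TWIST1 had already passed upward and VIM was chosen on this contrast, so few genes could lie closer. Nothing is read from the share.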

How the data were processed

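Biotin-labelled total RNA was measured on Affymetrix arrays, per the labels' protocols. The authors deposited log2 values per probe set. The submitters' processing notes name Affymetrix Expression Console. Its version, how probes were summarized and whether background was subtracted are not stated, so dim changes may be compressed. Values ran from 2.95 to 15.3 and were used as deposited.

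Of 54675 probe sets, 62 controls were left out. The platform annotation gives 1 symbol to 41097 probe sets and several to 1801. For 41043 of the 41097 the gene was found in the RefSeq table (GRCh38.p14), and its symbol there was used, changed or not. All 54613 others were fitted without a dim filter in limma 3.58.1 under R 4.3.3 (lmFit, then eBayes), AICAR minus vehicle, two-sided, with Benjamini-Hochberg adjustment over all of them and a threshold of 0.05. The array number limits precision; the median standard error was 0.0980. An exact permutation test cannot reach the threshold with 2 arrays per group. The fit was tested on simulated data.

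Members and lists were chosen with earlier results of these data known. List genes named are up to 4 that passed with the largest difference, or the 2 with the largest difference where none passed. OXTR, ELF3, CTNNB1, THBS1, COL1A2, COL3A1, COL4A1, COL5A1, COL12A1, ESR1, TFF3, KRT8, KRT18, KRT19 and DES were named after their values were seen. List genes with no single-symbol probe set were not analysed here. Alternatives were dim filters, quantile normalization, median centring, a trend with robust variances, other uses of a gene's probe sets, an adjusted p under 0.1, the replicate block and each array left out.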

Additional observations from a re-analysis of the deposited data

How the results depend on the processing

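The direction of VIM 201426_s_at, TWIST1 and COL1A1 1556499_s_at was the same in all 13 alternatives. The dim filters, the trend, the looser p threshold, the replicate block and 1 probe set per gene leave each difference unchanged. They could not turn a sign, nor could leaving out 1 array where the groups did not overlap. TWIST1 passed in 9 of them, with a difference of 0.72 to 0.91 (log2) and adjusted p-values of 0.000181 to 0.210. Of the 30 member probe sets 21 kept their sign throughout, and the other 9 did not pass in any fit in which they turned.

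Counts are given as higher and lower. Over the array, 327 and 485 probe sets passed. Without dim probe sets the counts were 545 and 924 at the 30th percentile and 886 and 1506 at the 50th. They were 1441 and 2524 with a trend and robust variances, 897 and 1493 at an adjusted p under 0.1, and 641 and 718 with 1 probe set per gene and dim genes left out. The labels do not say whether like-numbered arrays were paired. Their deviations correlated at r = -0.0677, which does not settle it, and the replicate block gave 379 and 581. Without 1 array, 0 to 1 and 0 passed, and 0 members and 0 list genes in either direction.

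Among the probe sets of the 8 genes other than VIM and COL1A1, 1 passed upward, that of TWIST1, and 0 passed downward. No other probe set of these 8 genes passed in any alternative. VIM and COL1A1 were chosen on this contrast, so they are given as values only and are not counted.

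The list genes passed upward in 3 and downward in 2. The downward count was 4 and 6 with the 2 dim filters, 0 after quantile normalization, 7 with 1 probe set per gene, 6 with the mean of a gene's probe sets and 1 with the replicate block. The block ended the calls of TNC (limma adjusted p = 0.0566) and LMNB1 (0.0546). The 1 gene that passed downward with the block was another gene of the mesenchymal list. The counts were 5 upward and 5 downward at an adjusted p under 0.1, and 7 and 8 with a trend and robust variances. The cause of these changes was not tested beyond the number of features and arrays in each fit.

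Dim signal limits ZEB2, SNAI2 and most ZEB1 probe sets, and the number of arrays limits all values.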
